A study of Gallus gallus with 4 samples.

Results

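The difference between granulosa cells near and far from the germinal disc was compared between the F1 and the F5 follicle of the hen ovary, as the interaction of position and follicle. For each gene the proximal-minus-distal difference on the log2(FPKM + 1) scale in F5 was subtracted from that in F1, where FPKM is the fragment number scaled to gene length and library total. The result was centred on the median of all 11203 genes whose mean over the 4 libraries was at least 1 FPKM, out of 19309 genes listed. An interaction of at least 2-fold, a value of 1 or more in size on this scale, was found for 399 genes, 3.56% of those tested. Of these, 272 genes (2.43%) were more proximal in F1 than in F5 and 127 genes (1.13%) more distal. In 292 of the 399 the position difference arose, vanished or reversed between the follicles, and in the other 107 it met none of those rules.

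The libraries were F1 proximal, F1 distal, F5 proximal and F5 distal granulosa cells, 1 library for each, from hens (Gallus gallus) aged 10 to 15 months. Poly-A RNA was sequenced, and the labels name no treatment and give neither a strain nor the number of hens or follicles behind a library. F1 is the follicle closest to ovulation and F5 one that stands further back in the same hierarchy. No difference here has a replicate check, so values are those of single libraries and none is tested, and any batch and the group cannot be told apart. Intervals given with a fold are 95% exact intervals on reads recovered from the FPKM values, and cover counting error only.

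Granulosa cells form the epithelium around the oocyte of a follicle. In birds the yolk-filled oocyte carries its nucleus in the germinal disc, a pale patch at the surface. Granulosa cells over the disc keep dividing and make little progesterone, while those away from it differentiate further and take on steroid production as ovulation nears. The follicle also exchanges WNT, hedgehog, activin and bone morphogenetic protein (BMP) signals between oocyte, granulosa and theca layers.

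The recovered library totals were 18020270 reads for F1 proximal, 13948790 for F1 distal, 16654793 for F5 proximal and 17351242 for F5 distal cells. ZP3, an egg coat protein made by avian granulosa cells, took 11.6% and 15.7% of recovered reads in F1 proximal and distal cells, against 2.03% and 2.09% in F5 proximal and distal cells. Before centring, the median proximal-minus-distal difference of all genes was 0.20 in F1 and 0.07 in F5 on the log2(FPKM + 1) scale, and the median interaction was 0.13. FOXL2, a transcription factor that marks granulosa cells, stood at 1594 FPKM in F1 proximal and 1391 FPKM in F1 distal cells, against 1055 FPKM in F5 proximal and 861 FPKM in F5 distal cells. It was thus high in all 4 libraries, whatever the position or the follicle.

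Genes were sorted by the centred position difference in each follicle. A difference was said to arise where it was at least 1 in F1 and under 0.5 in F5, to vanish where it was under 0.5 in F1 and at least 1 in F5, and to reverse where both were at least 0.5 with opposite signs, all in size on the log2 scale. Over all genes tested, proximal cells were at least 2-fold higher than distal cells for 3.7% and lower for 0.741% in F1, and higher for 1.89% and lower for 0.393% in F5. By these rules 181 genes had a difference that arose, 43 one that vanished and 68 one that reversed. Of the rest, 73 had the larger difference in F1 and 34 the larger one in F5. Of the arising differences 148 were more proximal and 33 more distal in F1. Of the vanishing ones 15 were more proximal in F1, and 28 were more distal in F1 because they were proximal in F5. Both classes thus held mostly proximal differences, as did all genes tested in each follicle. Reversing ones were split, with 39 more proximal and 29 more distal in F1.

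**Figure D1:**
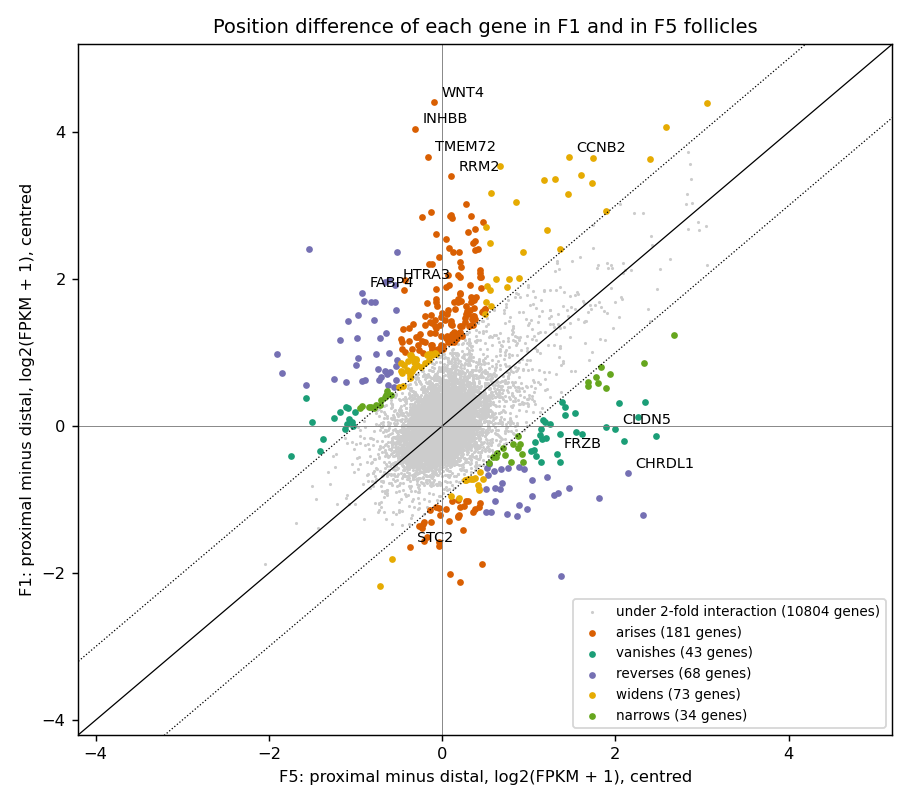
Centred proximal-minus-distal difference on the log2(FPKM + 1) scale in F1 (vertical axis) against F5 (horizontal axis), 1 point per gene. Colours mark the 399 genes with an interaction of at least 2-fold by class, and dotted lines mark an interaction of 1 and -1. WNT4, INHBB, TMEM72 and RRM2 lie far up at an F5 difference near 0, CLDN5 and FRZB lie to the right at an F1 difference near 0, and CHRDL1 lies in the lower right quadrant.

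Short genes with few reads made up part of these sets. A span under 200 bases was held by 93 of the 399 genes (23.3%), against 286 of all 11203 tested (2.55%), and reached 32 of the 68 reversing genes (47.1%). The 93 short genes had a median of 4 reads in F1 proximal, 2 in F1 distal, 5 in F5 proximal and 5 in F5 distal cells. The counting interval of the ratio of folds, that is the F1 proximal-to-distal fold over the F5 fold, left out 1 for 10 of these 93. Over all 399 genes it left out 1 for 300, of which 225 were more proximal and 75 more distal in F1. The gene with the lowest interaction of all, ENSGALG00000017829 at -3.53, had 0 reads proximal and 1 read distal in F1, against 5 reads proximal and 0 reads distal in F5. Genes named below for their own interaction have a mean of at least 5 FPKM, while other list members and markers given beside them can be lower.

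At the edge of the rule the values ran on without a gap. TPCN2 at an interaction of 1.00 and GINS2 at 1.02 were just inside it, and SLBP at 0.995 and CENPW at 0.99 were just outside. On the distal side BLOC1S2 at -1.004 and KIAA1217 at -1.01 were just inside, and ZBTB7C and TOR4A, both at -0.98, were just outside.

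The gene sets differed in which library stood apart from the other 3. For each gene this was taken as the library whose removal left the smallest range. F1 distal cells stood apart on the low side for 210 of the 272 genes more proximal in F1 (77.2%), against 17.4% of all genes tested. Among the 148 genes whose difference arose towards proximal it was 144. Genes more distal in F1 were mixed. F1 distal cells were the high library for 51 of 127 (40.2%), against 28.2% of all genes, and F5 distal cells the low one for 45 (35.4%), against 10.5% of all genes. Over all genes the low and the high side took 9.61% and 5.45% for F1 proximal and 10.2% and 5.39% for F5 proximal cells, and F5 distal cells were the high library for 13.2%. Since a library's place follows in part from the interaction itself, these shares are a description.

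**Figure D2:**
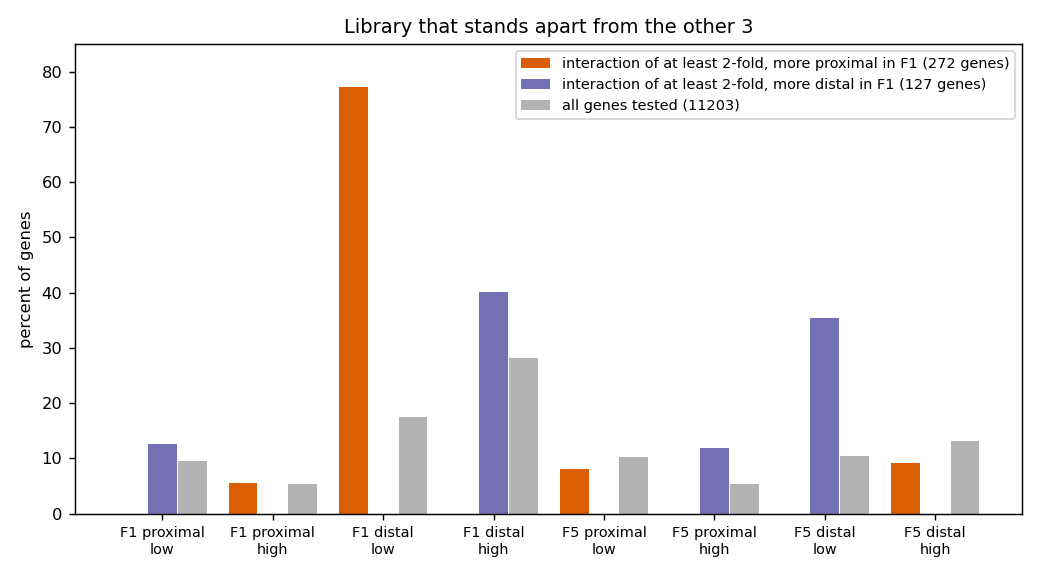
Percent of genes (vertical axis) for which each library stands apart from the other 3 on its low or its high side (horizontal axis), for 272 genes more proximal in F1, 127 genes more distal in F1 and all 11203 genes tested. The bar for F1 distal cells on the low side reaches 77.2% in the genes more proximal in F1 and 17.4% in all genes.

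The level of these genes also differed between the follicles. The mean of both positions was at least 2-fold lower in F1 than in F5 for 185 of the 272 genes more proximal in F1 (68.0%) and at least 2-fold higher for 7, where 7.68% and 7.82% of all genes tested were lower and higher. The first share follows in part from the rule, since F1 distal cells enter the mean and were the low library for 210 of the 272. Genes low in F1 can also pass the filter through their F5 levels, so these shares are a description. Genes arising towards proximal had median levels of 7.01 FPKM in F1 proximal and 1.07 FPKM in F1 distal cells, against 19.7 FPKM in F5 proximal and 18.2 FPKM in F5 distal cells. They were thus lower in F1 than in F5 at both positions, with median F1-minus-F5 differences of -1.15 in proximal and -2.60 in distal cells on the centred log2 scale. That the value was lower in distal than in proximal cells follows from the rule that picked these genes. Genes vanishing towards distal were the mirror of these, at medians of 11.6 FPKM in F1 proximal and 9.03 FPKM in F1 distal cells, against 8.07 FPKM in F5 proximal and 1.90 FPKM in F5 distal cells. There too the larger rise in distal cells follows from the rule. Of these 28 genes, 17 were at least 2-fold higher in F1 as a mean of both positions (60.7%), a share that also follows in part from the rule.

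Among named genes the largest interactions belonged to secreted signals. WNT4 (ENSGALG00000004790, chromosome 21, 6300381 to 6312118), a secreted WNT ligand needed for ovary formation in mammals, stood at 237 FPKM in F1 proximal and 8.72 FPKM in F1 distal cells, against 1600.3 FPKM in F5 proximal and 1624 FPKM in F5 distal cells. INHBB (ENSGALG00000028770, chromosome 7, 25068118 to 25068894), which encodes a beta subunit shared by inhibin B and activin B, stood at 28.5 FPKM in F1 proximal and 0.554 FPKM in F1 distal cells, against 378 FPKM in F5 proximal and 449 FPKM in F5 distal cells. In both, the F5 positions were similar and high, F1 proximal cells were lower, and F1 distal cells were far below all others. Proximal cells of F1 had WNT4 27.2-fold higher (23.4 to 31.7) than distal cells of F1, and the ratio of folds was 27.6 (23.7 to 32.2), with an interaction of 4.50. For INHBB the F1 fold was 51.5-fold higher (23.4 to 141), on 6 reads in F1 distal cells, the ratio of folds 61.1 (27.8 to 168) and the interaction 4.36. For WNT4 the authors' deposited table gives a log2 fold change, proximal over distal, of 4.53 in F1 and -0.11 in F5.

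F1 distal cells were also lowest for FST, IHH, IGF2, KREMEN1 and WNT6. FST (ENSGALG00000014908, chromosome Z, 15930691 to 15938408), follistatin, which binds and blocks activins, stood at 6.59 FPKM proximal and 0.588 FPKM distal in F1, against 23.9 FPKM proximal and 21.6 FPKM distal in F5. IHH (ENSGALG00000011347, chromosome 7, 21803719 to 21806885), Indian hedgehog, a ligand that granulosa cells send to the theca in mammals, stood at 109 FPKM proximal and 25.2 FPKM distal in F1, against 617 FPKM proximal and 619 FPKM distal in F5. IGF2 (ENSGALG00000006555, chromosome 5, 13148583 to 13163279), an insulin-like growth factor, stood at 26.5 FPKM proximal and 3.63 FPKM distal in F1, against 144 FPKM proximal and 126 FPKM distal in F5. In each of the 3, F5 levels were close between positions while F1 distal cells were lowest, and the ratios of folds were 10.1 (6.79 to 15.7) for FST, 4.33 (3.83 to 4.90) for IHH and 6.38 (5.15 to 7.97) for IGF2. KREMEN1 (ENSGALG00000005808, chromosome 15, 7808411 to 7819197), a receptor for the WNT antagonists of the dickkopf family, stood at 5.94 FPKM proximal and 1.20 FPKM distal in F1, against 23.4 FPKM proximal and 16.9 FPKM distal in F5, with an interaction of 1.08. WNT6 (ENSGALG00000011358, chromosome 7, 21900552 to 21908596), another WNT ligand, was proximal in both follicles, at 16.7 FPKM proximal and 0.557 FPKM distal in F1, against 28.4 FPKM proximal and 7.43 FPKM distal in F5. Its proximal-to-distal fold was 29.96-fold higher (16.1 to 63.0) in F1 and 3.82-fold higher (3.21 to 4.57) in F5. IHH and WNT6 lie 93667 bases apart on chromosome 7.

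Within the TGF-beta, activin and BMP list, 3 of 31 genes tested were at least 2-fold more proximal in F1 and 1 was more distal, beside 2.43% and 1.13% of all genes, with a median interaction of 0.07 that takes either sign among the processing alternatives. The 3 were INHBB, FST and BMP2, and the 1 was CHRDL1. BMP2, a BMP ligand below the level for naming and given here after its values were seen, stood at 1.47 FPKM proximal and 0.412 FPKM distal in F1, against 4.90 FPKM proximal and 11.1 FPKM distal in F5. Proximal cells held the higher level in F1 and the lower level in F5, on 23 proximal and 5 distal reads in F1. The alpha subunit INHA, at 2915 FPKM proximal and 3269.5 FPKM distal in F1, against 5099.6 FPKM proximal and 5479.8 FPKM distal in F5, and the beta A subunit INHBA, at 211 FPKM proximal and 238 FPKM distal in F1, against 17.5 FPKM proximal and 19.8 FPKM distal in F5, had interactions of -0.20 and -0.14, so they did not share the pattern of INHBB. The activin and BMP receptors tested, ACVR1, ACVR1B, ACVR2A, BMPR1A and BMPR1B, lay between -0.44 and 0.33.

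Within the WNT list 4 of 26 genes tested were more proximal in F1 and 1 more distal, at a median interaction of 0.18, beside 2.43% and 1.13% of all genes. WNT4, WNT6 and KREMEN1 are given above. NOTUM, a secreted enzyme that inactivates WNT ligands and was chosen after its values were seen, is the fourth, at 1.39 FPKM proximal and 0.129 FPKM distal in F1, against 6.89 FPKM proximal and 8.89 FPKM distal in F5. It had 2 reads in F1 distal cells and a ratio of folds of 14 (3.40 to 122). The 1 gene more distal in F1 was FRZB, described below. The other 21 genes of the list were within 2-fold, with AXIN2, a target of WNT signalling, at an interaction of 0.25, the signal mediator CTNNB1 at 0.30, and the receptors FZD1 and FZD8 both at 0.67. Of the 26 genes 18 lay above 0 and 8 below. The list median ranged from 0.06 to 0.32 among the alternatives. In the Notch and hedgehog list 1 of 10 passed, IHH, at a list median of 0.43 that takes either sign among the alternatives. Of its genes 6 lay above 0 and 4 below, and the hedgehog receptor PTCH1 lay at -0.25.

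**Figure D3:**
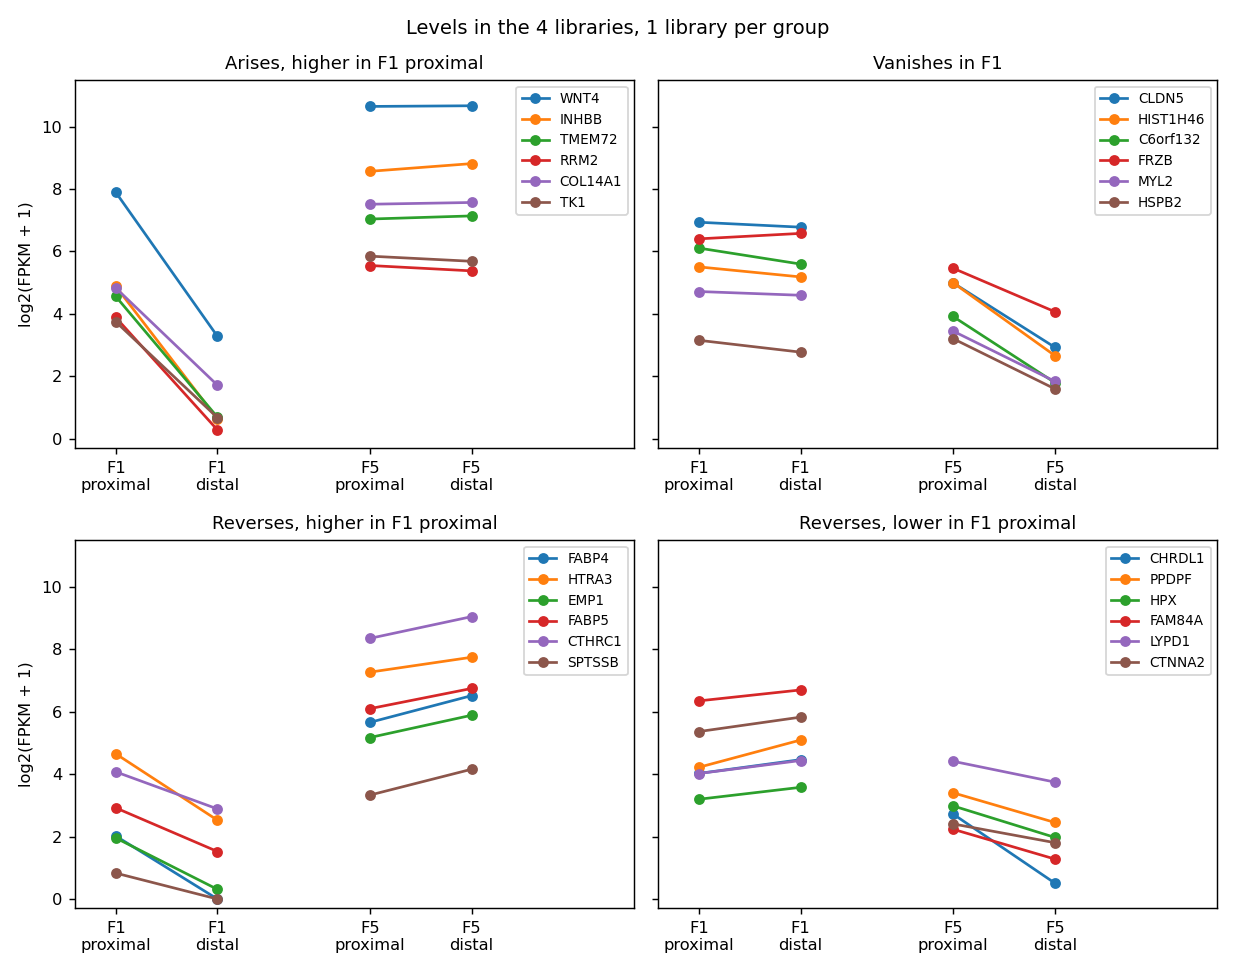
Levels on the log2(FPKM + 1) scale (vertical axis) in the 4 libraries (horizontal axis, 1 library per group) for the 6 named genes with the largest interactions in 4 classes. Lines join the positions of a follicle. In the upper left panel F5 lines are flat and F1 lines slope down to distal cells. In the upper right panel F1 lines are nearly flat and F5 lines slope down, and in the lower panels the slopes in F1 and F5 are opposite.

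Cell division genes made up the largest listed group. Of 52 mitosis and kinetochore genes tested, 23 were at least 2-fold more proximal in F1 and none more distal, beside 2.43% and 1.13% of all genes. Their median interaction was 0.91, beside 0 for all genes by construction, and 49 of the 52 lay above 0. Of 50 DNA replication and S phase genes, 15 were more proximal in F1 and none more distal, at a median of 0.61 and with 44 above 0. Both medians stayed above 0 under every alternative tried, from 0.36 to 1.84 for mitosis and from 0.31 to 0.96 for replication. Together 38 genes of either list were among the 272. The 16 G1 cyclins and cell cycle inhibitors tested held 1, CCNO, at a median of 0.14.

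The cell division genes shared a shape. The mitosis list summed to 520.3 FPKM in F1 proximal and 130.2 FPKM in F1 distal cells, against 1309 FPKM in F5 proximal and 1067 FPKM in F5 distal cells. The replication list summed to 571 FPKM in F1 proximal and 298 FPKM in F1 distal cells, against 1179.8 FPKM in F5 proximal and 1003 FPKM in F5 distal cells. F1 distal cells were lowest in both sums and F5 proximal cells highest. F1 distal cells stood apart on the low side for 48 of the 52 mitosis genes and 40 of the 50 replication genes, beside 17.4% of all genes tested. As a mean of positions 47 of 52 and 30 of 50 were at least 2-fold lower in F1 than in F5, beside 7.68% of all genes. In bulk samples a smaller share of dividing cells and less of these RNAs per cell cannot be told apart.

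Among enzymes that make DNA precursors, RRM2 (ENSGALG00000016442, chromosome 3, 96087199 to 96092245), the small subunit of ribonucleotide reductase, stood at 13.8 FPKM proximal and 0.218 FPKM distal in F1, against 45.9 FPKM proximal and 40.6 FPKM distal in F5. TK1 (ENSGALG00000007191, chromosome 18, 10142947 to 10144362), thymidine kinase, stood at 12.4 FPKM proximal and 0.599 FPKM distal in F1, against 56.7 FPKM proximal and 50.5 FPKM distal in F5. TYMS, thymidylate synthase, stood at 20.0 FPKM proximal and 5.44 FPKM distal in F1, against 53.6 FPKM proximal and 39.7 FPKM distal in F5. The difference by position was large in F1 and small in F5 in all 3, with ratios of folds of 56.0 (25.4 to 154), 18.5 (8.22 to 51.4) and 2.72 (2.18 to 3.42). The F1 distal values of RRM2 and TK1 rest on 6 reads each.

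Factors that license and open replication origins lay on the same side. The helicase subunits MCM2, MCM3, MCM4 and MCM5 had interactions of 1.51, 1.84, 1.12 and 1.32. MCM3 (ENSGALG00000016676, chromosome 3, 107167586 to 107179385), the subunit with the largest of these, stood at 11.9 FPKM proximal and 1.97 FPKM distal in F1, against 45.0 FPKM proximal and 40.4 FPKM distal in F5. CDT1 (ENSGALG00000013784, chromosome 11, 17932051 to 17935844) and CDC6 (ENSGALG00000028716, chromosome 27, 4392874 to 4396015), which load the helicase, had ratios of folds of 4.66 (3.81 to 5.72) and 5.79 (3.25 to 11.1). GINS1 and GINS2, parts of the active helicase, had interactions of 1.22 and 1.02, and E2F1, the transcription factor that drives S phase genes, one of 1.09. UHRF1, which maintains DNA methylation after replication, had an interaction of 1.53. All of these were lowest in F1 distal cells.

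Mitotic kinases and their regulators were more proximal in F1 as well. CDK1 (ENSGALG00000003085, chromosome 6, 8142505 to 8170935), the kinase that starts mitosis, stood at 21.5 FPKM proximal and 1.41 FPKM distal in F1, against 64.5 FPKM proximal and 50.8 FPKM distal in F5. PLK1 (ENSGALG00000006110, chromosome 14, 6884685 to 6889434), polo-like kinase, stood at 21.7 FPKM proximal and 1.78 FPKM distal in F1, against 55.3 FPKM proximal and 48.5 FPKM distal in F5. CCNB3 (ENSGALG00000025810, chromosome 4, 1813109 to 1815939), a B-type cyclin, stood at 14.4 FPKM proximal and 1.15 FPKM distal in F1, against 39.8 FPKM proximal and 30.7 FPKM distal in F5. In each, F1 proximal cells were below the F5 libraries and F1 distal cells far below all others. The ratios of folds were 11.98 (7.65 to 19.7) for CDK1, 10.7 (7.84 to 14.9) for PLK1 and 9.69 (6.21 to 15.8) for CCNB3. CCNA2 and CDC25A, a cyclin and an activating phosphatase, had interactions of 1.16 and 1.36. NEK2, which acts at the centrosome, had one of 1.61.

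Structural parts of the spindle and kinetochore were alike. NUF2 (ENSGALG00000003438, chromosome 8, 5439985 to 5450983), a part of the NDC80 complex that holds microtubules, stood at 8.10 FPKM proximal and 0.291 FPKM distal in F1, against 41.2 FPKM proximal and 41.2 FPKM distal in F5, with a ratio of folds of 27.9 (12.5 to 77.1). PRC1 (ENSGALG00000012836, chromosome 10, 19561549 to 19563276), which bundles microtubules between the spindle poles, stood at 23.0 FPKM proximal and 3.04 FPKM distal in F1, against 86.0 FPKM proximal and 71.5 FPKM distal in F5. BIRC5 (ENSGALG00000008713, chromosome 3, 14764584 to 14765717), survivin, a subunit of the chromosomal passenger complex, stood at 27.3 FPKM proximal and 4.48 FPKM distal in F1, against 59.1 FPKM proximal and 48.1 FPKM distal in F5. These genes were at like levels at both F5 positions and lowest in F1 distal cells. The kinesins KIF4A, KIF20A and KIF23 had interactions of 1.70, 1.41 and 1.59, the spindle factors TPX2 and NUSAP1 1.85 and 1.61, and the checkpoint proteins MAD2L1 and BUB1B 1.58 and 1.06. SPC25 and CENPA of the kinetochore and centromere lay at 1.45 and 1.15, RACGAP1 of the midzone at 1.35, CDCA3 at 2.34, and TOP2A, the topoisomerase that untangles chromosomes, at 1.22. KIF20A and SERPINE2, given below, overlap a gene on the other strand. Whether counting used strand is not stated in the labels, so their reads may be shared. CDC25A overlaps a gene on the same strand, so its reads may be shared whether or not strand was used.

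A smaller group of division genes was proximal in both follicles, by more in F1 than in F5. CCNB2 (ENSGALG00000004161, chromosome 10, 6313607 to 6321500), a mitotic cyclin, stood at 97.7 FPKM proximal and 5.80 FPKM distal in F1, against 105 FPKM proximal and 35.4 FPKM distal in F5. Its proximal-to-distal fold was 16.8-fold higher (14.5 to 19.6) in F1 and 2.95-fold higher (2.77 to 3.14) in F5. CCNO (ENSGALG00000028595, chromosome Z, 16589252 to 16590557), a cyclin known for its part in making multiple cilia, stood at 51.8 FPKM proximal and 1.18 FPKM distal in F1, against 55.0 FPKM proximal and 5.43 FPKM distal in F5. The F1 and F5 proximal libraries were close for both genes, and the distal libraries differed between follicles. GTSE1, a microtubule-associated protein of dividing cells, had 276 reads proximal and 3 reads distal in F1, against 526 reads proximal and 340 reads distal in F5, and NCAPG of condensin an interaction of 1.38. The ratio of folds of GTSE1 was 44.2 (14.7 to 217).

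Matrix genes and secreted proteases formed a further group. In the matrix list 3 of 29 genes tested were at least 2-fold more proximal in F1 and none more distal, and in the list of proteases and their inhibitors 5 of 24 and none, beside 2.43% and 1.13% of all genes. COL14A1 (ENSGALG00000016411, chromosome 2, 136370296 to 136490384), a collagen that sits on fibrils of other collagens, stood at 27.4 FPKM proximal and 2.29 FPKM distal in F1, against 182 FPKM proximal and 189 FPKM distal in F5, and it overlaps a gene on the other strand. ADAMTS9 (ENSGALG00000007392, chromosome 12, 13713809 to 13779455), a metalloprotease that cleaves proteoglycans, stood at 8.42 FPKM proximal and 0.782 FPKM distal in F1, against 57.8 FPKM proximal and 61.5 FPKM distal in F5. ADAMTS15 (ENSGALG00000001407, chromosome 24, 1673353 to 1682880), of the same family, stood at 46.9 FPKM proximal and 13.6 FPKM distal in F1, against 259 FPKM proximal and 269 FPKM distal in F5. All 3 were level across positions in F5 and lower in F1, most of all in distal cells, with ratios of folds of 12.5 (10.8 to 14.5), 11.46 (9.33 to 14.2) and 3.60 (3.26 to 3.97). SERPINE2 (ENSGALG00000005135, chromosome 9, 7800341 to 7823434), an inhibitor of serine proteases such as plasminogen activators, had 3.24 FPKM proximal and 0.668 FPKM distal in F1, against 13.7 FPKM proximal and 18.4 FPKM distal in F5, and PRELP (ENSGALG00000003551, chromosome 26, 5204578 to 5209509), a small leucine-rich proteoglycan, 3.93 FPKM proximal and 1.07 FPKM distal in F1, against 15.9 FPKM proximal and 19.5 FPKM distal in F5. MRC2 (ENSGALG00000000461, chromosome 27, 2412671 to 2426010), a receptor that takes up collagen, was proximal in both follicles at 23.8 FPKM proximal and 0.282 FPKM distal in F1, against 24.2 FPKM proximal and 3.01 FPKM distal in F5, with a ratio of folds of 10.5 (6.38 to 18.4). Basement membrane genes were within 2-fold, with LAMC1 at an interaction of 0.30, COL4A3 at 0.36 and NID1 at 0.66.

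TMEM72 (ENSGALG00000026808, chromosome 6, 18677235 to 18685329), a transmembrane protein, held the third largest interaction among named genes, 3.83, at 22.6 FPKM proximal and 0.618 FPKM distal in F1, against 130.5 FPKM proximal and 140.0 FPKM distal in F5. EMX2 (ENSGALG00000009302, chromosome 6, 28814903 to 28820582), a homeobox transcription factor needed for the urogenital tract of the mouse, stood at 30.5 FPKM proximal and 10.4 FPKM distal in F1, against 69.0 FPKM proximal and 57.4 FPKM distal in F5. It was the only 1 of 22 tested genes of the list of granulosa cell and ovarian factors to pass, beside 3.56% of all genes. The rest of that list, which holds FOXL2, GATA4, GATA6, ESR1 and the gonadotropin receptors, lay between -0.86 and 0.55. LHCGR and FSHR, the receptors for luteinising and follicle-stimulating hormone, had interactions of -0.58 and 0.55. LHCGR stood at 494 FPKM proximal and 600.0 FPKM distal in F1, against 32.9 FPKM proximal and 29.3 FPKM distal in F5, and FSHR at 29.0 FPKM proximal and 16.0 FPKM distal in F1, against 47.6 FPKM proximal and 43.3 FPKM distal in F5. AMH, at -0.86, was proximal in both follicles, at 6.96 FPKM proximal and 0.508 FPKM distal in F1, against 21.2 FPKM proximal and 1.55 FPKM distal in F5. Its ratio of folds was 1.00 (0.594 to 1.76), which holds 1.

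The genes whose difference arose towards distal were fewer and their interactions smaller. STC2 (ENSGALG00000002893, chromosome 13, 8561504 to 8571173), stanniocalcin 2, a secreted glycoprotein that inhibits the protease PAPPA, stood at 2.65 FPKM proximal and 8.94 FPKM distal in F1, against 5.07 FPKM proximal and 6.51 FPKM distal in F5, with a ratio of folds of 0.380 (0.249 to 0.577). PDE1B (ENSGALG00000029124, scaffold JH375635.1, 21 to 6141), a phosphodiesterase that breaks down cyclic nucleotides when calcium is high, stood at 8.30 FPKM proximal and 20.1 FPKM distal in F1, against 8.65 FPKM proximal and 9.78 FPKM distal in F5, with a ratio of 0.467 (0.373 to 0.586). CYP1B1 (ENSGALG00000025822, chromosome 3, 31278223 to 31281746), a cytochrome that hydroxylates oestrogens, stood at 13.6 FPKM proximal and 26.3 FPKM distal in F1, against 3.26 FPKM proximal and 3.26 FPKM distal in F5. In these the F1 distal library was the highest of the 4. DRAXIN, a secreted guidance protein that also blocks WNT signals, stood at 5.33 FPKM proximal and 11.2 FPKM distal in F1, against 7.69 FPKM proximal and 8.11 FPKM distal in F5.

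A pair of genes in the same class was nearly silent in F5. ADCYAP1R1 (ENSGALG00000005223, chromosome 2, 1340187 to 1469658), the receptor of the peptide PACAP, which raises cyclic AMP, stood at 7.45 FPKM proximal and 17.4 FPKM distal in F1, against 0.175 FPKM proximal and 0.302 FPKM distal in F5. DYNC1I1 (ENSGALG00000009722, chromosome 2, 24085822 to 24251013), a chain of the dynein motor, stood at 9.17 FPKM proximal and 16.9 FPKM distal in F1, against 0.368 FPKM proximal and 0.206 FPKM distal in F5. For ADCYAP1R1 the F5 reads numbered 5 in proximal and 9 in distal cells, and the interval of its ratio of folds, 0.739 (0.219 to 2.84), holds 1. That of DYNC1I1, 0.303 (0.10 to 0.847), leaves out 1. ADCYAP1R1 overlaps a gene on the other strand. Without centring, ADCYAP1R1, DYNC1I1, CYP1B1 and DRAXIN were under 2-fold. PDE1B and ADCYAP1R1 were the 2 of 24 tested genes of the gonadotropin receptor and cyclic nucleotide list past 2-fold, beside 3.56% of all genes. The median of that list, -0.03, takes either sign among the alternatives.

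Differences that vanished in F1 belonged in the named set only to genes that were proximal in F5. CLDN5 (ENSGALG00000001621, chromosome 15, 694098 to 694748), a claudin of tight junctions, stood at 121 FPKM in F1 proximal and 109 FPKM in F1 distal cells, against 30.9 FPKM in F5 proximal and 6.64 FPKM in F5 distal cells. FRZB (ENSGALG00000002763, chromosome 7, 2280810 to 2296210), a secreted antagonist of WNT ligands, stood at 83.7 FPKM in F1 proximal and 94.6 FPKM in F1 distal cells, against 43.1 FPKM in F5 proximal and 15.8 FPKM in F5 distal cells. C6orf132 (ENSGALG00000028570, chromosome 26, 3136186 to 3148471), an open reading frame with no role given here, stood at 68.0 FPKM in F1 proximal and 47.4 FPKM in F1 distal cells, against 14.1 FPKM in F5 proximal and 2.49 FPKM in F5 distal cells. In all 3, F5 distal cells were lowest and both F1 libraries were above both F5 libraries. CLDN5 was 1.12-fold higher (1.03 to 1.21) in proximal than in distal cells of F1 and 4.65-fold higher (3.61 to 6.06) in those of F5, a ratio of folds of 0.240 (0.182 to 0.314). The ratio was 0.325 (0.290 to 0.363) for FRZB and 0.253 (0.207 to 0.307) for C6orf132.

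MYL2 (ENSGALG00000004582, chromosome 15, 6028493 to 6032632), a regulatory light chain of muscle myosin, stood at 25.3 FPKM proximal and 23.2 FPKM distal in F1, against 9.94 FPKM proximal and 2.59 FPKM distal in F5, with 19 reads in F5 distal cells. HSPB2 (ENSGALG00000028966, chromosome 24, 6230556 to 6234006), a small heat shock protein, stood at 7.91 FPKM proximal and 5.85 FPKM distal in F1, against 8.24 FPKM proximal and 2.04 FPKM distal in F5. HIST1H46 (ENSGALG00000025786, chromosome 1, 47998825 to 47999136), named as a histone gene, stood at 44.5 FPKM proximal and 35.4 FPKM distal in F1, against 31.0 FPKM proximal and 5.36 FPKM distal in F5, but it belongs to a multigene family and overlaps a gene on the other strand, so its reads are uncertain. The 15 genes without a difference in F1 that were distal in F5 included 3 with a symbol, all with a mean under 5 FPKM, and the counting interval left out 1 for 6 of the 15.

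Reversing differences gave proximal cells the higher level in F1 and the lower in F5 for 39 genes. The counting interval of the ratio of folds left out 1 for 21 of these 39. FABP4 (ENSGALG00000015767, chromosome 2, 121225723 to 121228944), a carrier of fatty acids in the cytoplasm, stood at 3.05 FPKM in F1 proximal and 0 FPKM in F1 distal cells, against 49.5 FPKM in F5 proximal and 90.4 FPKM in F5 distal cells. FABP5 (ENSGALG00000015764, chromosome 2, 121148557 to 121153615), of the same family, stood at 6.56 FPKM in F1 proximal and 1.87 FPKM in F1 distal cells, against 67.5 FPKM in F5 proximal and 106 FPKM in F5 distal cells. HTRA3 (ENSGALG00000015575, chromosome 4, 80438630 to 80461899), a secreted serine protease, stood at 24.1 FPKM in F1 proximal and 4.76 FPKM in F1 distal cells, against 153 FPKM in F5 proximal and 213 FPKM in F5 distal cells. In each, F5 distal cells were the highest library and F1 distal cells the lowest. FABP4 had 26 reads proximal and 0 reads distal in F1, against 390 reads proximal and 742 reads distal in F5, so its F1 fold has no upper limit. The lower limit of the exact interval was 5.08 for its F1 proximal-to-distal fold and 9.19 for its ratio of folds. In F5 proximal cells FABP4 was 1.83-fold lower (1.61 to 2.07). FABP5 was 3.51-fold higher (2.41 to 5.24) in F1 and 1.57-fold lower (1.47 to 1.68) in F5 proximal cells. HTRA3 was 5.07-fold higher (4.34 to 5.95) in F1 and 1.39-fold lower (1.35 to 1.44) in F5, a ratio of folds of 7.07 (6.04 to 8.33). Without centring the F5 difference of HTRA3 was under 0.5 in size, short of the rule for reversing. FABP5 and FABP4 lie 72108 bases apart on chromosome 2.

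CTHRC1 (ENSGALG00000016071, chromosome 2, 129186770 to 129190817), a secreted protein with a collagen-like stretch, stood at 15.8 FPKM proximal and 6.39 FPKM distal in F1, against 325 FPKM proximal and 527 FPKM distal in F5, with a ratio of folds of 4.02 (3.02 to 5.41). EMP1 (ENSGALG00000011803, chromosome 1, 48184764 to 48198006), a membrane protein of epithelia, had 2.88 FPKM proximal and 0.240 FPKM distal in F1, against 35.1 FPKM proximal and 58.2 FPKM distal in F5, on 4 reads in F1 distal cells. SPTSSB (ENSGALG00000027494, chromosome 9, 21417214 to 21425710), a subunit of the enzyme that starts sphingolipid synthesis, had 24 reads proximal and 0 reads distal in F1, against 258 reads proximal and 500 reads distal in F5. These too were proximal in F1 and distal in F5, with F1 levels well below those of F5. For SPTSSB the lower limit of the exact interval of the F1 proximal-to-distal fold was 4.66. In F5 proximal cells SPTSSB was 1.86-fold lower (1.60 to 2.17).

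The opposite reversal, distal in F1 and proximal in F5, was held by 29 genes, and the counting interval left out 1 for 17 of them. Of those named among the 29, only PPDPF met the rule for reversing without centring too. CHRDL1 (ENSGALG00000008072, chromosome 4, 13471386 to 13513129), a secreted antagonist of BMP ligands, stood at 15.2 FPKM in F1 proximal and 21.1 FPKM in F1 distal cells, against 5.59 FPKM in F5 proximal and 0.426 FPKM in F5 distal cells. PPDPF (ENSGALG00000005849, chromosome 20, 9368435 to 9370742) stood at 17.6 FPKM in F1 proximal and 33.1 FPKM in F1 distal cells, against 9.58 FPKM in F5 proximal and 4.48 FPKM in F5 distal cells. HPX (ENSGALG00000022586, chromosome 1, 193596425 to 193599483), hemopexin, which binds heme, stood at 8.16 FPKM in F1 proximal and 10.9 FPKM in F1 distal cells, against 6.91 FPKM in F5 proximal and 2.93 FPKM in F5 distal cells. F1 distal cells were the highest library and F5 distal cells the lowest in all 3. CHRDL1 was 1.38-fold lower (1.28 to 1.49) in F1 proximal cells and 13.1-fold higher (9.21 to 19.3) in F5 proximal cells, a ratio of folds of 0.0551 (0.0371 to 0.0795), so most of its interaction lay in F5. PPDPF was 1.88-fold lower (1.58 to 2.23) in F1 and 2.14-fold higher (1.54 to 3.00) in F5.

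FAM84A (ENSGALG00000016459, chromosome 3, 98116394 to 98118503) stood at 80.3 FPKM proximal and 103 FPKM distal in F1, against 3.71 FPKM proximal and 1.43 FPKM distal in F5, and CTNNA2 (ENSGALG00000027853, chromosome 4, 86948459 to 87057215), an alpha-catenin that links cadherins to actin, at 40.2 FPKM proximal and 55.7 FPKM distal in F1, against 4.30 FPKM proximal and 2.497 FPKM distal in F5. Both were far higher in F1 than in F5 at either position. LYPD1 (ENSGALG00000012176, chromosome 7, 29271240 to 29285815) stood at 15.2 FPKM proximal and 20.6 FPKM distal in F1, against 20.3 FPKM proximal and 12.4 FPKM distal in F5, and it overlaps GPR39 on the other strand. Ratios of folds were 0.302 (0.199 to 0.449) for FAM84A, 0.419 (0.305 to 0.572) for CTNNA2 and 0.451 (0.310 to 0.656) for LYPD1.

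Among the 107 genes outside those rules, 28 of the 58 with the larger difference in F1 and towards proximal were proximal in both follicles by at least 0.5 on the log2 scale. The same held on either side for 2 of the 15 with the larger difference in F1 and towards distal, and, of those with the larger difference in F5, for 0 of 12 more proximal and 9 of 22 more distal in F1. In the others the differences lay on opposite sides in the follicles, and by under 0.5 in at least 1 of them. CDH3 (ENSGALG00000026291, chromosome 11, 18310977 to 18316940), P-cadherin, stood at 51.4 FPKM proximal and 3.45 FPKM distal in F1, against 85.8 FPKM proximal and 35.7 FPKM distal in F5. EPCAM (ENSGALG00000008969, chromosome 3, 8534387 to 8539545), an adhesion molecule of epithelia, stood at 21.7 FPKM proximal and 0.571 FPKM distal in F1, against 29.0 FPKM proximal and 7.54 FPKM distal in F5. CA9 (ENSGALG00000021340, chromosome Z, 9084930 to 9095262), a carbonic anhydrase at the cell surface, stood at 21.4 FPKM proximal and 0.895 FPKM distal in F1, against 47.5 FPKM proximal and 17.8 FPKM distal in F5. These were proximal in both follicles, with F1 distal cells lowest, and the ratios of folds were 6.19 (5.18 to 7.44), 9.89 (5.46 to 19.6) and 8.93 (5.26 to 16.3). HSD17B1 (ENSGALG00000027429, chromosome 27, 4962219 to 4963268), which turns oestrone into oestradiol, was 6.09-fold higher (3.94 to 9.85) in F1 and 2.01-fold higher (1.66 to 2.44) in F5 proximal cells. It was the only 1 of 19 tested steroid synthesis genes past 2-fold, beside 3.56% of all genes. MT1, a metallothionein, had 42 reads proximal and 1 read distal in F1, against 30 reads proximal and 15 reads distal in F5, a ratio of folds of 15.6 (2.12 to 672). In the junction list 3 of 28 were more proximal in F1, namely CDH3, EPCAM and CLDN11, and 1 was more distal, CLDN5, beside 2.43% and 1.13% of all genes. CLDN11, given after its values were seen, had 134 reads proximal and 1 read distal in F1, against 72 reads proximal and 8 reads distal in F5, a ratio of folds of 11.1 (1.42 to 494).

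Where the difference was smaller in F1 but the rule for vanishing was not met, VAT1L (ENSGALG00000013225, chromosome 11, 13444164 to 13487596) was 1.70-fold higher (1.46 to 1.98) in F1 and 5.80-fold higher (4.03 to 8.57) in F5 proximal cells. ELOVL7, CCK, KIAA1217 and BLOC1S2 were under 0.5 in F1 and missed that rule only because their F5 difference was under 1 on the centred log2(FPKM + 1) scale. Their uncentred F5 folds were 4.95 (1.64 to 20.0) for CCK, 2.53 (1.93 to 3.34) for KIAA1217 and 1.76 (1.17 to 2.69) for BLOC1S2. ELOVL7, which lengthens fatty acids, was 1.03-fold lower (0.915 to 1.16) in F1 and 2.10-fold higher (1.75 to 2.53) in F5 proximal cells. CCK (ENSGALG00000011940, chromosome 2, 44414500 to 44419173), the peptide hormone cholecystokinin, stood at 26.2 FPKM proximal and 32.0 FPKM distal in F1, against 1.69 FPKM proximal and 0.341 FPKM distal in F5, on 19 proximal and 4 distal reads in F5. KIAA1217 and BLOC1S2 had ratios of folds of 0.417 (0.312 to 0.553) and 0.496 (0.279 to 0.880), and KIAA1217 overlaps ARHGAP21 on the other strand. JUP, plakoglobin of cell junctions, whose difference was the larger in F1, was 1.46-fold lower (1.34 to 1.58) in F1 and 1.38-fold higher (1.19 to 1.59) in F5 proximal cells. In the other direction, ENPP6 and A2ML1, a phosphodiesterase and a protease inhibitor, were 1.43-fold higher (1.26 to 1.63) and 2.10-fold higher (1.46 to 3.07) in F1 proximal cells and 1.75-fold lower (1.57 to 1.94) and 1.51-fold lower (1.38 to 1.66) in F5 proximal cells. The difference of A2ML1 was smaller in F1 only on the centred log2(FPKM + 1) scale, at 0.48 in F1 and -0.64 in F5. Its uncentred fold was the larger in F1.

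Several large groups showed no gene past 2-fold, beside 3.56% of all genes tested, a share at which a short list can hold none. None of 23 cholesterol synthesis and uptake genes passed, and 21 of them lay below 0 at a median interaction of -0.18, which ranged from -0.21 to -0.05 among the alternatives. Their median position difference, on the centred log2 scale, was -0.55 in F1 and -0.36 in F5, so they were lower in proximal cells of both follicles. None of 60 ribosomal protein genes, 48 nuclear genes of oxidative phosphorylation or 18 immediate early and stress genes passed, at medians of 0.08, -0.04 and 0.09, of which that of oxidative phosphorylation takes either sign among the alternatives. STAR and CYP11A1, which begin steroid synthesis, lay within 2-fold at -0.55 and -0.51. CYP11A1 stood at 322 FPKM proximal and 633 FPKM distal in F1, against 133 FPKM proximal and 202 FPKM distal in F5. Of 36 hypoxia and glycolysis genes 1 passed, CA9, and of 23 apoptosis genes 1, BIRC5, both near the 3.56% of all genes.

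**Figure D4:**
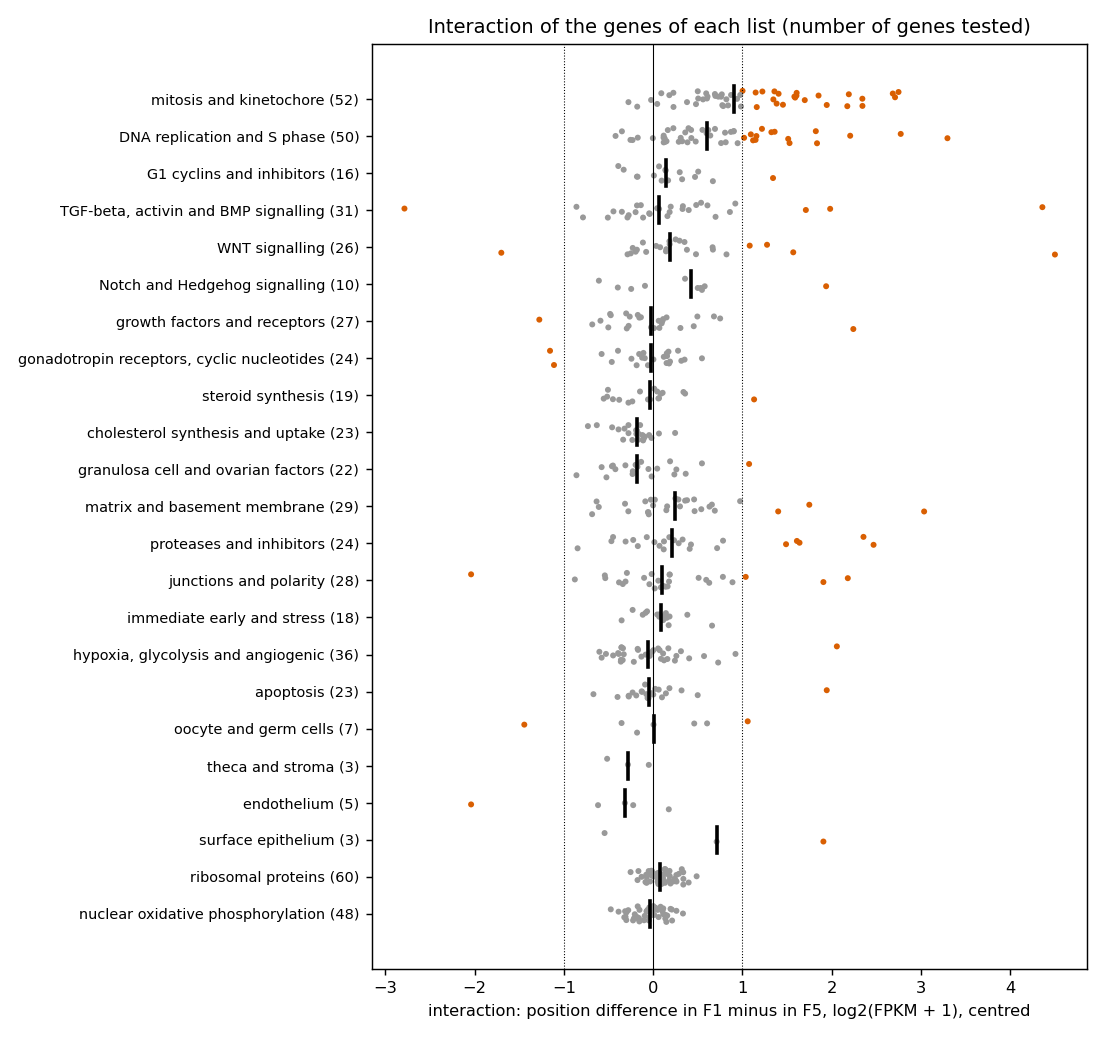
Interaction of each tested gene on the centred log2(FPKM + 1) scale (horizontal axis) by gene list (vertical axis, number of genes tested in brackets). Points are genes, orange where the interaction is at least 2-fold, and bars are list medians. The mitosis and replication lists lie to the right of 0, at medians of 0.91 and 0.61, and the other large lists lie around 0.

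Markers of other cells were read in the same libraries. Of 9 oocyte and germ cell markers found, 7 were tested, and the levels of all 9 summed to 28.3 FPKM in F1 proximal and 2.83 FPKM in F1 distal cells, against 63.1 FPKM in F5 proximal and 17.5 FPKM in F5 distal cells. BUB1B alone held 7.57 FPKM in F1 proximal and 1.89 FPKM in F1 distal cells, against 16.0 FPKM in F5 proximal and 12.1 FPKM in F5 distal cells, and so most of both distal sums. The median position difference of the 7 tested genes was 1.37 in F1 and 1.35 in F5 on the centred log2 scale, and their median interaction was 0.01. Across the alternatives that median interaction lay between -0.03 and 0.97, the highest with a pseudocount of 0.1 FPKM. DAZL had 102 reads proximal and 0 reads distal in F1, against 128 reads proximal and 3 reads distal in F5, and DDX4 had 2 reads in F1 proximal cells and 0 in the other 3 libraries. The list had 1 gene past 2-fold in each direction, BUB1B, which also acts in mitosis, and BMP15, with 64 reads proximal and 2 reads distal in F1, against 208 reads proximal and 5 reads distal in F5 and a ratio of folds of 0.572 (0.0910 to 6.14). The interval of BMP15 holds 1. By uncentred FPKM the proximal-to-distal fold of ZP2, ZAR1, NANOG and SYCP3 was larger in F1 than in F5, the other way from BMP15. ZP2 had 398 reads proximal and 8 reads distal in F1, against 1230 reads proximal and 119 reads distal in F5. ZAR1 had 67 reads proximal and 1 read distal in F1, against 58 reads proximal and 13 reads distal in F5. The pseudocount of 1 FPKM understates differences at such low distal levels.

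Of 5 surface epithelium markers found, 3 were tested, and all 5 summed to 29.2 FPKM in F1 proximal and 4.19 FPKM in F1 distal cells, against 35.8 FPKM in F5 proximal and 10.4 FPKM in F5 distal cells. EPCAM made up most of this sum except in F1 distal cells, where MSLN did. KRT19 had 135 reads proximal and 0 reads distal in F1, against 112 reads proximal and 18 reads distal in F5, and KRT18 was at 0 in all 4. Endothelial markers summed to 178 FPKM in F1 proximal and 161 FPKM in F1 distal cells, against 104 FPKM in F5 proximal and 66.1 FPKM in F5 distal cells. Most of that was CLDN5 and EGFL7. PECAM1 stood at 3.38 to 5.31 FPKM and TIE1 at 3.04 to 5.1 FPKM over the libraries. EMCN stood at 3.67 FPKM proximal and 0.116 FPKM distal in F1, against 10.6 FPKM proximal and 0.986 FPKM distal in F5, higher in proximal cells of both follicles. CDH5 and KDR stood at 0.36 FPKM or below in each library. Of 11 theca and stroma markers found, 3 were tested and none of these was past 2-fold. All 11 summed to 14.5 FPKM in F1 proximal and 8.81 FPKM in F1 distal cells, against 22.1 FPKM in F5 proximal and 15.5 FPKM in F5 distal cells, with LUM at 0 in all libraries. COL1A2 held the largest part, at 11.8 FPKM proximal and 6.55 FPKM distal in F1, against 11.7 FPKM proximal and 6.93 FPKM distal in F5. CYP17A1 stood at 0.135 FPKM proximal and 0.305 FPKM distal in F1, against 2.59 FPKM proximal and 2.17 FPKM distal in F5. MYH11 was likewise lower at both positions of F1. Leukocyte markers summed to at most 3.17 FPKM and those of red cells and thrombocytes to at most 0.708 FPKM in a library. The part of the oocyte, epithelial, endothelial and theca markers in the interaction was not tested.

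Some named genes neighbour each other. CDC6 and TOP2A lie 21733 bases apart on chromosome 27, with interactions of 1.36 and 1.22. The FABP5 and FABP4 pair and the IHH and WNT6 pair, given above, were likewise of 1 direction. Of the 399 genes, 363 had in the authors' deposited table a log2 fold change for both follicles. The difference of these, centred on its median over 11098 genes, had the same sign as the interaction in all 363. The table and the interaction rest on the same libraries, so this compares scales, not samples.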

How the data were processed

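RNA of 4 granulosa cell libraries, 1 per group as the labels give them, was analysed from tables of gene expression as FPKM, which the authors had scaled to gene length and library total before they deposited them. TopHat2 2.0.12 and HTSeq 0.6.1 were used upstream, per the submitters' processing notes. The genome build and the use of strand in counting are not stated in the labels. Coordinates are those of the deposited tables. The tables also hold the authors' log2 fold changes, proximal over distal, for F1 and for F5, per the file headers.

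Of 19311 rows, 2 without a gene were left out. Names were taken from the files where they were unique and stood in a RefSeq table of GRCg7b on a chromosome that did not contradict them (11919 rows). Library totals were recovered from the commonest FPKM ratios within genes, and the smallest whole numbers in those ratios (tolerance 1e-06) were taken as a gene's reads, for all 16894 genes above 0. Reads that share a common factor are then understated and their intervals too wide. The recovered reads made up 97.3% to 97.9% of the totals.

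Differences were taken on the log2(FPKM + 1) scale, whose pseudocount of 1 FPKM understates those of low genes. The mean over libraries had to reach 1 FPKM. Folds of single genes are uncentred ratios of FPKM, with exact Clopper-Pearson intervals. The ratio of folds has an exact conditional interval. Where a distal library had 0 reads, only the lower limit of the exact interval is given for a fold. No test was run, since 4 libraries in a design of 2 positions by 2 follicles leave none to measure the spread. The scripts (Python 3.11.15, numpy 2.4.6, scipy 1.17.1, pandas 2.3.3) were tested on simulated data.

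Named genes were, by class and direction, the 6 with the largest interactions among genes with a usable name and a mean of at least 5 FPKM, and members past 2-fold of signalling, steroid, matrix, junction, cell cycle and granulosa lists. The members, the 25 gene lists (905 genes) and the rules were chosen with earlier results of these data known. Alternatives were other pseudocounts, filters, scalings and centring. A planned description of promoter motifs was not run, and no sequence was used here. A few listed genes are not reported here.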

Additional observations from a re-analysis of the deposited data

Results flagged for a closer look

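In 12 named genes the position difference ran one way in F1 and the other way in F5, each by at least 0.5 on the centred log2(FPKM + 1) scale. With 1 library per group the difference between the follicles was not tested. More proximal in F1 were FABP4, with an interaction of 2.74, HTRA3 with 2.47, EMP1 with 2.23, FABP5 with 1.91, CTHRC1 with 1.75 and SPTSSB with 1.52. More distal in F1 were CTNNA2, with an interaction of -1.20, LYPD1 with -1.22, FAM84A with -1.44, HPX with -1.52, PPDPF with -1.96 and CHRDL1 with -2.78. Centring lowered every F1 difference by 0.20 and every F5 difference by 0.07. The centred F1 differences of CHRDL1, HPX, FAM84A, LYPD1 and CTNNA2 were -0.64, -0.58, -0.55, -0.62 and -0.66. Without centring they were under 0.5 in size, as was the F5 difference of HTRA3, -0.54 when centred. These genes kept opposite directions in the follicles without centring, but then missed the rule for reversing. The values of FABP4 and SPTSSB rest on 0 reads in F1 distal cells and that of EMP1 on 4 reads there.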

How the results depend on the processing

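No paired analysis was possible because each group had 1 library, and leaving out a library leaves no interaction. The number of genes past 2-fold depended on the pseudocount. With 0.1 FPKM, 687 genes were more proximal and 261 more distal in F1, with 433 differences arising, 98 vanishing and 148 reversing. With 5 FPKM these counts came to 58, 22, 40, 5 and 9. With a mean of at least 5 FPKM, 178 genes were more proximal and 59 more distal, 19 differences vanished and 29 reversed, on 8026 genes tested, and without a filter 69 vanished. Requiring the counting interval to leave out 1 kept 225 and 75 genes. The difference of the authors' deposited log2 fold changes, chosen after seeing the data, gave 712 and 263 genes, with 457 differences arising, 104 vanishing and 136 reversing. Without centring the split of more proximal against more distal genes was 374 to 97 (79.4% proximal), against 272 to 127 (68.2%) with it, and with median-ratio scaling it was 345 to 123. Leaving ZP3 out of the totals, or thinning all libraries to 11512477 reads outside ZP3, also chosen after seeing the data, gave 316 and 130, and 274 and 140 genes. Of the 272 and 127 genes, 234 and 109 remained past 2-fold after thinning. No named gene changed sign under the settings tried, which were 9, or 8 for FABP4 and SPTSSB without a deposited fold change in F1. Past 2-fold in every setting run for them were 32 of 91. With a pseudocount of 5 FPKM 59 were under 2-fold, which lowers differences of low genes by construction, and 10 were under it in another setting. These 10 were ADCYAP1R1, BLOC1S2, CYP1B1, DRAXIN, DYNC1I1, ELOVL7, GINS2, HSD17B1, JUP and KIAA1217. Of 180 list medians under alternatives, 61 moved by 0.1 or changed sign, among them none of mitosis, replication or cholesterol synthesis that changed sign. The cause of these shifts was otherwise not tested. Depth limits genes with few reads in F1 distal cells, where 22 of the 399 genes had 0.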
